A study of Mus musculus with 8 samples.

Results

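The osteoclast genes examined here are 8 genes of bone resorption and osteoclast fusion, Acp5, Ctsk, Atp6v0d2, Ocstamp, Dcstamp, Calcr, Oscar and Nfatc1. They were chosen by name, and each was matched to a single mouse Ensembl gene among the 50462 identifiers of the count table. The libraries were prepared from medial knee cartilage caps of individual male wild-type C57BL/6J mice, with 4 mice in each of 2 groups. Naive mice had no surgery and were sampled at day 0, when they were 11 weeks old. DMM mice had the left medial meniscus destabilised at 11 weeks of age, by cutting the ligament that ties it to the tibia, and were sampled at day 42, when they were 17 weeks old. Because the naive mice were neither operated on nor kept to the same age, surgery and the added weeks of age cannot be told apart.

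Osteoclasts are multinucleated cells that arise by fusion of precursors of the monocyte and macrophage lineage. The cytokine Csf1 keeps the precursors alive, and RANKL (Tnfsf11) binds RANK (Tnfrsf11a) on them to induce the transcription factor Nfatc1, which switches on the genes of fusion and resorption. The mature cell acidifies a sealed pit on the bone surface with a proton pump and digests collagen there with cathepsin K. In the joint such cells are found in subchondral bone and at the edge of calcified cartilage. Several of the 8 genes are also used outside osteoclasts, with Acp5 known from macrophages, Ctsk from fibroblasts and Nfatc1 from lymphocytes and endocardium.

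Of the 8 osteoclast genes, 1 was called higher in DMM and 0 were called lower, where calls were made in DESeq2 at a Benjamini-Hochberg adjusted p of at most 0.05 together with a fold change of at least 1.5 in either direction. The called gene was Ocstamp, which rose 1.86-fold. Nfatc1 rose 1.37-fold, which passed the adjusted p and not the fold threshold. Acp5, Ctsk, Oscar, Atp6v0d2 and Dcstamp had fold estimates between 1.25 and 1.56 and did not pass the adjusted p, and Calcr was too scarce to receive one. Across all 17760 genes with an adjusted p, 13.7% were called in either direction, 7.75% as higher and 5.92% as lower, and 22.6% passed the adjusted p at any fold. The count of 1 called among the 7 osteoclast genes with an adjusted p is near that share. The median log2 fold change was 0.48 over the 8 genes and -0.02 over all genes tested, and 7 of the 8 had a positive estimate, compared with 48.3% of all genes tested. These estimates are not independent, since they come from the same 8 libraries and several members varied together. With group means removed, Pearson's r of log2 values ran from -0.62 (Calcr and Nfatc1) to 0.96 (Acp5 and Ctsk). The shared direction was not tested.

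Promoter sequences are shown for the resorption enzymes Ctsk and Acp5, which kept a nearly fixed ratio between libraries, and for Oscar. RefSeq promoter windows of GRCm38.p6, reaching from 250 bases before to 50 bases after a transcription start, were matched for 4 of the 8 genes, Ctsk, Oscar, Acp5 and Calcr. Capitals mark matches on either strand to short words bound by factors of the osteoclast programme, namely the NFAT core TGGAAA, AP-1 TGANTCA, the E-boxes CACGTG and CATGTG that Mitf can bind, and the PU.1 core GAGGAA. The Ctsk window is chr3:95498960-95499259 on the plus strand, the Oscar window chr7:3616108-3616407 on the minus strand, and the Acp5 window chr9:22130549-22130848 on the minus strand, which was picked from 3 Acp5 windows because it was the single window with any match.
Ctsk promoter: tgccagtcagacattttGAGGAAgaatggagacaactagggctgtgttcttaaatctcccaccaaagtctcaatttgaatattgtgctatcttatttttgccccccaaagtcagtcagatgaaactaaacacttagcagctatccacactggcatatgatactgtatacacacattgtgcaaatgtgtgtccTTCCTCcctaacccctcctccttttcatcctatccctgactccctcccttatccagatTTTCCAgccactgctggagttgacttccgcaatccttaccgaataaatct
Oscar promoter: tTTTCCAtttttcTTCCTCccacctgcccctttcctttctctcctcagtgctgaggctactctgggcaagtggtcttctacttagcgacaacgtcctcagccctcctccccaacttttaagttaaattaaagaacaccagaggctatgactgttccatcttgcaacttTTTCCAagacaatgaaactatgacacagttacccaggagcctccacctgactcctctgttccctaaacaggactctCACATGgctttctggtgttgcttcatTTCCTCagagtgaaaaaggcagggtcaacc
Acp5 promoter: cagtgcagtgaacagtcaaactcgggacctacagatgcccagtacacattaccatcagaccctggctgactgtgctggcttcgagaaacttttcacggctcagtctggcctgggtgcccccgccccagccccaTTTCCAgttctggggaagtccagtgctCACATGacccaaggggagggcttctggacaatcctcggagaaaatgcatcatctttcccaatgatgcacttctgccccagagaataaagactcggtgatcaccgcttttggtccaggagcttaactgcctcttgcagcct

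The Ctsk window held 1 NFAT core and 2 PU.1 cores, and the Oscar window held 2 NFAT cores, 2 PU.1 cores and 1 CATGTG. The Acp5 window held 1 NFAT core and 1 CATGTG, whereas neither of the 2 Calcr windows held any of the words. Of all 32851 promoter windows, 21.4% held the NFAT core, 28.3% the PU.1 core, 14.2% CATGTG, 7.15% CACGTG and 7.81% AP-1. These words are common, and a match describes the letters of the window only.

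Nfatc1, the transcription factor that directs osteoclast formation, was at normalised counts of 1306, 1481, 1280.0 and 1413 in naive replicates 1 to 4 and at 1831, 1903, 1858 and 1925 in DMM replicates 1 to 4. All DMM libraries lay above all naive libraries, which was the case for 11.9% of all genes tested, while 10.3% lay wholly below. The log2 fold change was 0.46 (SE 0.09, 95% interval 0.29 to 0.63, DESeq2 adjusted p = 6.62e-06). Of all genes tested, 11.4% were higher at an adjusted p of at most 0.05 with any fold. The coefficient of variation of Nfatc1 was 6.83% in naive and 2.26% in DMM libraries, the smallest of the 8 genes in both groups.

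Acp5 (GRCm38 chr9:22126727-22135711, minus strand) encodes tartrate-resistant acid phosphatase, the enzyme by which osteoclasts are stained. It was at normalised counts of 3287, 3458, 2468 and 4457 in naive libraries and at 6164, 3414, 4385 and 5438 in DMM libraries. The groups overlapped, since DMM replicate 2 lay below naive replicate 2 and DMM replicate 3 lay below naive replicate 4. Its log2 fold change of DMM over naive was 0.51 (SE 0.21, 95% interval 0.10 to 0.91, DESeq2 adjusted p = 0.0601). The gene 6530413G14Rik spans Acp5 on the other strand. Of the 31-base words of Acp5, 5.58% also occur in other genes, among which 6530413G14Rik was the most frequent match. This gene had at most 7.98 normalised counts in a library.

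Ctsk (chr3:95499256-95509362, plus strand) encodes cathepsin K, the protease with which osteoclasts cleave collagen. Its normalised counts were 2885, 2961, 1916 and 4319.9 in naive libraries and 5083, 3116, 4227 and 5235 in DMM libraries. The order of libraries was nearly that of Acp5, and the groups again overlapped through naive replicate 4 and DMM replicate 2. For Ctsk the log2 fold change was 0.55 (SE 0.23, 95% interval 0.10 to 0.99, DESeq2 adjusted p = 0.0664). Both Acp5 and Ctsk were called when naive replicate 4 was left out (log2 fold changes 0.66 and 0.77) and when DMM replicate 2 was left out (0.64 and 0.68), and in none of the fits without another library.

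Atp6v0d2 (chr4:19876841-19922605, minus strand) encodes an osteoclast-enriched subunit of the proton pump and is also needed for fusion. It was at 705, 607, 535 and 788 normalised counts in naive libraries and at 959.5, 553, 698 and 1101 in DMM libraries. DMM replicates 1 and 4 lay above all naive libraries, and DMM replicates 2 and 3 lay within their range. A log2 fold change of 0.33 was estimated with a 95% interval of -0.09 to 0.75 (DESeq2 adjusted p = 0.283), so neither no change nor a change of 1.5-fold (0.58 on this scale) was outside the interval.

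Ocstamp (chr2:165393760-165400405, minus strand) and Dcstamp (chr15:39745930-39760938, plus strand) encode related membrane proteins on which the fusion of osteoclast precursors depends. Ocstamp was at 47.5, 46.6, 52.4 and 79.4 normalised counts in naive libraries and at 121, 72.0, 93.0 and 132 in DMM libraries. DMM replicate 2 lay below naive replicate 4, and the groups were otherwise apart. Ocstamp rose by 0.89 on the log2 scale (SE 0.27, 95% interval 0.37 to 1.42, DESeq2 adjusted p = 0.0069). It was also called whichever of the 8 libraries was left out, with DESeq2 adjusted p between 0.000794 and 0.0491. Of the 31-base words of Ocstamp, 5.65% also occur in other genes.

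Dcstamp was at 45.7, 59.9, 23.5 and 49.9 normalised counts in naive libraries and at 58.1, 34.4, 58.4 and 71.3 in DMM libraries. Naive replicate 2 was the second highest of all 8 libraries for this gene, and naive replicate 3 the lowest. For Dcstamp the log2 fold change was 0.32 with a 95% interval of -0.32 to 0.96 (DESeq2 adjusted p = 0.544). Whether Ocstamp and Dcstamp differed in their response was not tested.

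Oscar (chr7:3609813-3616157, minus strand) encodes a collagen-binding receptor that acts as a costimulator in osteoclast precursors. Its normalised counts were 36.1, 29.3, 32.1 and 60.1 in naive libraries and 74.6, 46.2, 62.6 and 61.4 in DMM libraries. The DMM libraries other than replicate 2 lay above all naive libraries, and naive replicate 4 lay close to DMM replicates 3 and 4. For Oscar the estimate was 0.64 on the log2 scale (SE 0.29, 95% interval 0.06 to 1.22, DESeq2 adjusted p = 0.102). Without naive replicate 4 it was 0.91 and Oscar was called.

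Calcr (chr6:3685680-3764714, minus strand) encodes the calcitonin receptor, through which calcitonin restrains resorption. It was at 15.8, 7.98, 9.63 and 7.94 normalised counts in naive libraries and at 14.9, 6.45, 8.23 and 7.22 in DMM libraries. Replicate 1 was the highest library in both groups. Its log2 fold change was -0.18 with a 95% interval of -1.25 to 0.89. The libraries held between 6.00 and 18.0 estimated counts of Calcr. At this depth a change of 1.5-fold (0.58 on the log2 scale) in either direction lay inside the interval.

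**Figure D1:**
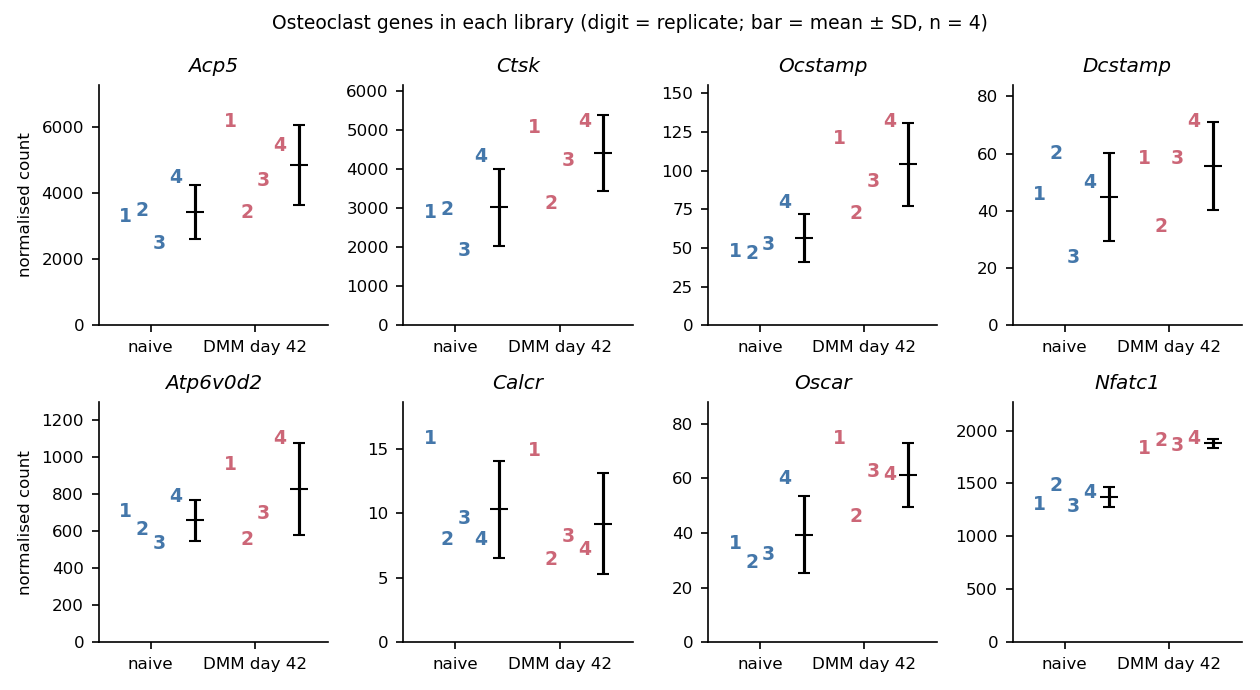
Normalised counts of the 8 osteoclast genes (y axis, linear from 0) in naive and DMM libraries (x axis), where each digit is the replicate number of a library and the bar is the mean ± SD (n = 4). Nfatc1 is the single gene whose groups do not overlap, and DMM replicate 2 is the lowest DMM library for 7 of the 8 genes.

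Levels were compared between genes as normalised counts per kilobase of the longest transcript. In naive libraries the order was Acp5 (2362 ± 564, SD, n = 4), Ctsk (1998 ± 654), Nfatc1 (286 ± 19.5), Atp6v0d2 (259 ± 43.7), Dcstamp (22.4 ± 7.68), Oscar (21.5 ± 7.70), Ocstamp (15.4 ± 4.23) and Calcr (2.75 ± 0.994). In DMM libraries Acp5 (3352 ± 832) and Ctsk (2920.1 ± 643) again led, ahead of Nfatc1 (392 ± 8.86) and Atp6v0d2 (326 ± 97.7). Oscar (33.5 ± 6.37), Ocstamp (28.6 ± 7.41) and Dcstamp (27.8 ± 7.70) followed, and Calcr (2.45 ± 1.03) was the lowest. The members thus fell into steps of abundance, with resorption enzymes at the top and fusion proteins and receptors well below. Acp5 and Ctsk, Nfatc1 and Atp6v0d2, and neighbours among Dcstamp, Oscar and Ocstamp each differed by less than the larger SD of the pair in both groups.

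**Figure D2:**
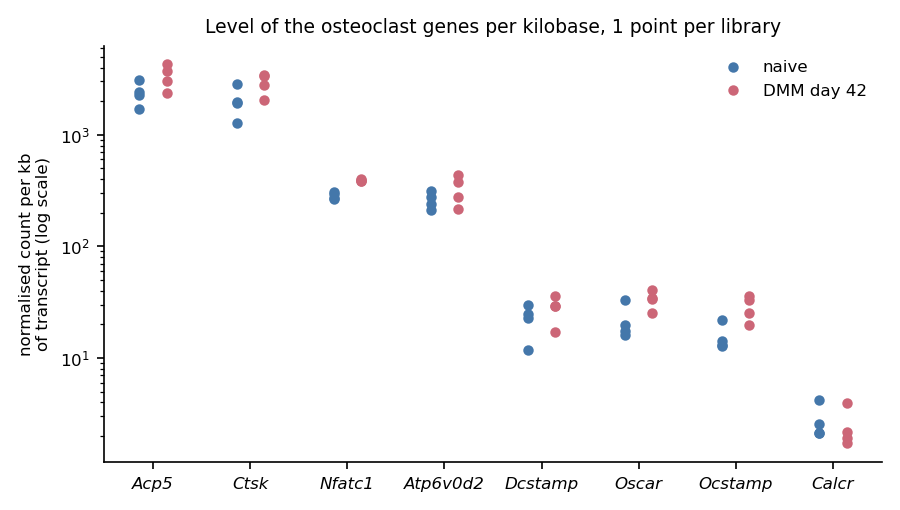
Normalised count per kilobase of transcript (y axis, log scale) of each osteoclast gene (x axis), with 1 point per library. Acp5 and Ctsk, at 2362 and 1998 on average in naive libraries, stand well above Dcstamp, Oscar and Ocstamp at 15.4 to 22.4, and Calcr is the lowest.

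Most members varied widely among mice of the same group. Acp5 spanned 1.81-fold within naive and 1.81-fold within DMM libraries, and Ctsk spanned 2.25-fold and 1.68-fold. The same libraries stood at the ends for most members. Naive replicate 4 was the highest naive library for 5 of the 8 genes and naive replicate 3 the lowest for 5. DMM replicate 4 was the highest DMM library for 5 genes and DMM replicate 2 the lowest for 7. DMM replicate 2 lay above every naive library for 1 gene, Nfatc1, compared with 6 genes for DMM replicate 1, 3 for replicate 3 and 7 for replicate 4.

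Within a library, Ctsk kept a nearly fixed ratio to Acp5. Its normalised count was between 77.6% and 96.9% of that of Acp5 in all 8 libraries, a span of 1.25-fold, while Acp5 itself spanned 2.50-fold and Ctsk 2.73-fold over the same libraries. The ratio of Atp6v0d2 to Acp5 spanned 1.39-fold, that of Oscar 1.69-fold, Ocstamp 1.80-fold, Dcstamp 1.84-fold, Nfatc1 1.88-fold and the scarce Calcr 3.63-fold. Nfatc1 itself spanned 1.16-fold within naive and 1.05-fold within DMM libraries. Ocstamp averaged 1.67% ± 0.353 of Acp5 in naive mice and 2.15% ± 0.193 in DMM mice (SD, n = 4, exact permutation test, two-sided p = 0.114). None of the 7 ratios to Acp5 passed an exact permutation test of DMM against naive, with p between 0.114 and 0.914 and adjusted p over the 7 ratios of 0.467 or more, where 0.0286 is the smallest p that 4 against 4 libraries allow. These ratios were chosen after the values were seen.

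**Figure D3:**
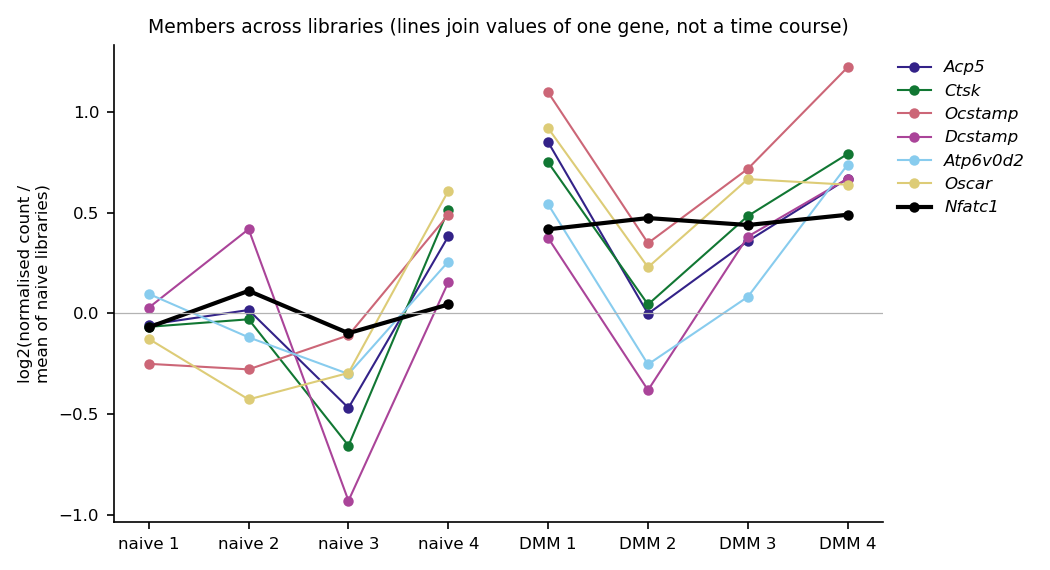
Normalised count of 7 members in each library (x axis), as the log2 ratio to the mean of the 4 naive libraries (y axis). Lines join the values of 1 gene within a group. The lines of Acp5, Ctsk, Ocstamp, Oscar and Atp6v0d2 dip together at DMM replicate 2 and rise at naive replicate 4, whereas Nfatc1 stays level within each group.

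The genes most like each member between libraries of the same group were searched among 11010 genes whose mean reached 100 normalised counts, by Pearson's r of log2 values over the 8 libraries after the group means were removed. With so few libraries a search of this size can return high values for any gene, and the neighbours are given as a description. For Acp5 they were Cd244a (r = 0.965), Fam198b (0.955) and Ckb (0.950), and for Ctsk Fam198b (0.966), Pdxk (0.941) and Slc37a2 (0.941). Of these, Ckb encodes the brain-type creatine kinase that is abundant in osteoclasts. Ocstamp was nearest to Gm47147 (0.990), Ubn2 (0.946) and B4galnt3 (0.929), Dcstamp to Pdhx (0.957), Gm28437 (0.939) and Pdxk (0.938), and Atp6v0d2 to L3mbtl3 (0.982), Plgrkt (0.936) and Fubp1 (0.924). Oscar was nearest to Cdkal1 (0.988), Dbi (0.972) and Shtn1 (0.954), and Nfatc1 to Stn1 (0.981), Atpaf2 (0.981) and Snf8 (0.971). Acp5 and Ctsk shared Fam198b, and Ctsk and Dcstamp shared Pdxk.

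To place the members in their pathway, 47 further genes in 6 lists were read from the same fit. Of these, 2 were called higher, 1 was called lower and 2 further genes were higher and 10 lower at the adjusted p without the fold threshold. The 3 called genes are 6.38% of the list, beside 13.7% of all genes tested. At any fold 8.51% were higher and 23.4% lower, beside 11.4% and 11.2% of all genes tested. Their median log2 fold change was 0.05. With the total count as size factor the split at any fold turned to 13 higher and 4 lower, compared with 4 and 11 here, so the balance of the pathway genes depends on the scaling. Among genes averaging 10 or more normalised counts, the median difference (log2) went from -0.0136 to 0.138 under that scaling.

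Among the ligands, Tnfsf11, which encodes RANKL, was at 36.9, 37.3, 55.7 and 55.6 normalised counts in naive libraries and at 88.7, 93.5, 77.4 and 130 in DMM libraries. The groups did not overlap, and Tnfsf11 rose by 1.07 on the log2 scale (SE 0.26, DESeq2 adjusted p = 0.000532). Csf1 changed by 0.17 (DESeq2 adjusted p = 0.330) and Il34, the other ligand of the Csf1 receptor, by 0.65 (DESeq2 adjusted p = 0.0683), and neither was called. The decoy receptor for RANKL, Tnfrsf11b, averaged 1095 ± 399 normalised counts in naive mice and 1594 ± 423 in DMM mice (SD, n = 4), a log2 difference of 0.54 (DESeq2 adjusted p = 0.124), and RANK itself changed by -0.26 (DESeq2 adjusted p = 0.479).

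Of 10 receptors and adaptors, 0 were called, and 5 were lower at the adjusted p without the fold threshold, compared with 11.2% of all genes tested. These were the immunoreceptor adaptors Fcer1g (log2 fold change -0.57) and Tyrobp (-0.47), the Tec family kinases Btk (-0.45) and Tec (-0.40), and the phospholipase Plcg2 (-0.34). Fcer1g pairs with Oscar at the membrane, and it was at 1022, 1209, 1083 and 897 normalised counts in naive libraries and at 599.6, 688, 728 and 829 in DMM libraries. Every DMM library lay below every naive library for Fcer1g, as was the case for 10.3% of all genes tested. The estimate for its partner Oscar was positive and did not pass the adjusted p. Whether the partners differed in their response was not tested. Under total count scaling Fcer1g was the only one of the 5 that was still lower at the adjusted p. Adaptors and kinases of this list, like PU.1, are also expressed by neutrophils and other myeloid cells. Of 12 neutrophil lineage markers, 11 were called lower in DMM, beside 5.92% of all genes tested. The part of such cells in these values was not tested.

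Of 8 transcription factors, Prdm1, which represses inhibitors of osteoclast formation, was called higher and rose by 0.70 on the log2 scale (SE 0.21, DESeq2 adjusted p = 0.00708). Its normalised counts were 105, 99.8, 89.9 and 117 in naive and 225, 153, 126 and 165 in DMM libraries, and it lost its call without DMM replicate 1 (0.52). Mitf was higher at the adjusted p without the fold threshold (0.52). Spi1, which encodes PU.1, was lower on the same terms (-0.49, DESeq2 adjusted p = 0.00275), with 1122, 1519, 1259.7 and 1056 normalised counts in naive and 820.2, 939.5, 847 and 926 in DMM libraries. Tfec, a relative of Mitf, was lower too (-0.56). Of the 4 repressors of osteoclast formation, 0 were called, and Irf8 was lower (-0.44) at the adjusted p without the fold threshold.

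Of 15 genes of the resorption machinery, Car2 was called lower and 0 were called higher. Car2, which encodes the carbonic anhydrase that supplies protons to the pump and is also abundant in erythroid cells, was at 9511, 9686, 7958 and 6768 normalised counts in naive and 3182, 3403, 6723 and 4299.6 in DMM libraries, and it fell by 0.95 on the log2 scale (SE 0.22, DESeq2 adjusted p = 0.000315). The highest DMM library for Car2 was replicate 3, which also had the highest summed erythroid markers of the DMM libraries (172953 normalised counts, compared with 80831 to 86529 in the others), and the part of erythroid RNA in the Car2 values was not tested. Mmp9, the most abundant gene of this list per kilobase among those not called, changed by 0.06 with a 95% interval of -0.31 to 0.43. Itgb3, the integrin chain of the sealing zone and of platelets, was lower at the adjusted p (-0.55) and the anion exchanger Slc4a2 higher (0.35). Of the 7 fusion genes 0 were called, Cd47 was lower at the adjusted p (-0.43), and Cd9, the most abundant per kilobase, changed by 0.22 (DESeq2 adjusted p = 0.249).

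**Figure D4:**
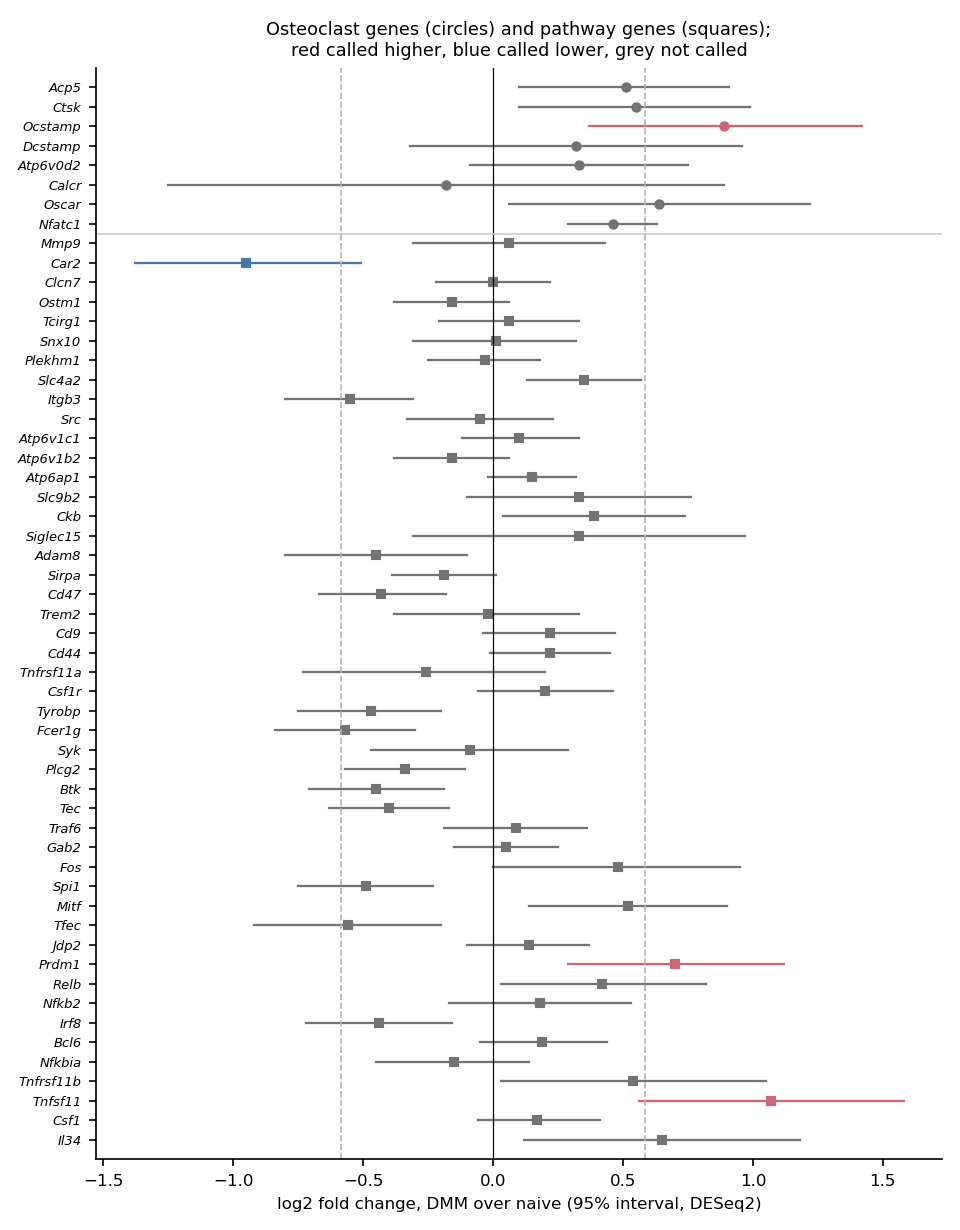
Log2 fold change of DMM over naive with its 95% interval from DESeq2 (x axis) for the 8 osteoclast genes (circles) and the 47 pathway genes (squares), with dashed lines at 1.5-fold in either direction. Ocstamp, Prdm1 and Tnfsf11 (red) were called higher and Car2 (blue) lower.

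Because a cap holds several kinds of cell, the summed normalised counts of marker lists were set beside the members. In bulk samples, fewer cells of a type and less RNA per cell cannot be told apart. The 8 osteoclast genes summed to between 6317 and 11175 in naive and between 9145 and 14306 in DMM libraries, and made up 0.0439% to 0.107% of all counts. The 12 macrophage markers summed to between 5534 and 6527 in naive and between 4504 and 6059 in DMM libraries. Of these markers 0 were called higher and 2 lower (Timd4 and Cd163), beside 7.75% and 5.92% of all genes tested. Timd4 was at 0 in a pair of DMM libraries.

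The 11 osteoblast and osteocyte markers summed to between 130275 and 221322 in naive and between 346359.8 and 429522 in DMM libraries. Of these markers 10 were called higher, beside 7.75% of all genes tested. The DMM mean was 2.33 times the naive mean for that list and 1.42 times for the osteoclast genes. Such sums follow their most abundant genes. Col1a1, which fibroblasts also express, was 84.2% of the naive osteoblast and osteocyte sum, and the ratio without it was 2.23. Acp5 and Ctsk together were 74.7% of the naive osteoclast sum, and the ratio of the other 6 genes was 1.35. The 9 fibroblast and synovial lining markers had a ratio of 3.53 (2.63 without Col3a1, which was 63.7% of the naive sum) and the 8 endothelial markers of 1.27. The 12 neutrophil lineage markers had a ratio of 0.549 and the 10 erythroid markers of 0.475. Their part in the values of the osteoclast genes was not tested. Without Col1a1, the 10 other osteoblast and osteocyte markers summed to 45327, 45122, 59950.3 and 79252 in DMM replicates 1 to 4. With Col1a1 the sums were 429522, 347995, 399916 and 346359.8, so the order of the DMM libraries depended on that gene. The osteoclast genes summed to 14306, 9145, 11391 and 13970.2 in the same libraries.

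**Figure D5:**
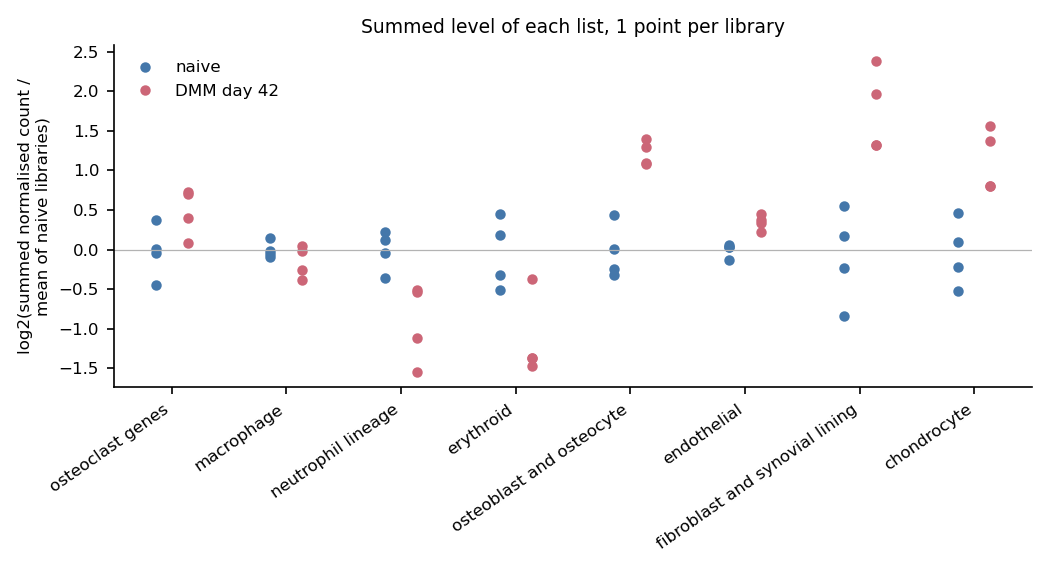
Summed normalised count of each marker list (x axis), as the log2 ratio to the mean of the naive libraries (y axis), with 1 point per library. The groups are apart for the osteoblast and osteocyte, fibroblast, endothelial, chondrocyte and neutrophil lists and overlap for the osteoclast genes, macrophage and erythroid markers.

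Libraries held between 12479443 and 16548002 estimated counts in all. Cartilage transcripts were read from 14 chondrocyte markers, which summed to between 40992 and 80836 normalised counts in naive and between 102084 and 174189 in DMM libraries. They made up 0.287% to 1.33% of all counts. Col2a1 reached at least 15101 and Acan at least 5203 normalised counts in every library, whereas Matn1 averaged 5.24 in naive and 0.889 in DMM libraries and was at 0 in DMM replicate 4. Bone, marrow and blood transcripts were present in all libraries, with osteoblast and osteocyte markers at 0.913% to 3.20% of counts and erythroid markers at 0.603% to 1.82%. Col1a1 was at 108513 or more normalised counts in every library. Per kilobase of the longest transcript, Col1a1 averaged 23197 in the naive group and 54559 in the DMM group. The corresponding Col2a1 means were lower, at 4698 and 12504. The caps were thus not cartilage alone.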

How the data were processed

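RNA sequencing libraries of 8 mice were analysed. The deposited table holds estimated counts per Ensembl gene, which the authors obtained with Kallisto from reads trimmed by Trimmomatic, with transcripts summed to genes in tximport. Of the values, 39.2% were not whole. They were rounded, and transcript length offsets were not used. The labels' processing notes name a human build, whereas the methods name a mouse one. The labels and methods name different library kits, and whether counting used strand is not given in the sources used here. Coordinates and symbols are from GENCODE vM21 and RefSeq for GRCm38.

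DMM was compared with naive by the Wald test of DESeq2 (version 1.42.0, R 4.3.3), the tool used in the study, with median-of-ratios factors, default filters and no covariates. Values are counts divided by these factors. Intervals are 1.96 SE either side. Each library is from 1 mouse. The p-values set a change against the variation between mice, which DESeq2 estimates with information from other genes. Alternatives were edgeR version 4.0.16 (quasi-likelihood test), TMM factors, total counts, other filters, no fold threshold, the replicate number as a block and leaving out each library. The tests were tried on simulated counts drawn from the DESeq2 fit to these libraries, with known changes placed in more abundant genes only. This simulation shares the model of the test and does not cover genes as scarce as Calcr.

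The members, the pathway lists and the marker lists were chosen with earlier results of these data known. The text names every member, each called pathway gene, the most abundant uncalled gene of each pathway list per kilobase, other pathway genes that passed the adjusted p (named after their values were seen) and, for each member averaging 10 or more normalised counts, its 3 nearest genes. Log2 values for these had 1 added. Calcr, whose mean was just under this limit, was left out of that search. A pathway gene is not reported here and is left out of the pathway counts.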

Additional observations from a re-analysis of the deposited data

Results flagged for a closer look

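Of 140 groups of 4 values tested for a single library far from the others by Dixon's test, 5 held one, where chance flags about 1 in 20 groups, or 7.00 of them. No member's normalised count was among them. Atp6v0d2 stood at 20.2% of Acp5 in DMM replicate 4, compared with 15.6% to 16.2% in the other DMM libraries. Of the pathway genes, Irf8 was at 1351 normalised counts in DMM replicate 2 (1044 to 1066 in the others) and Itgb3 at 3340.2 in DMM replicate 4 (3128 to 3155). The summed erythroid markers were at 172953 in DMM replicate 3 (80831 to 86529), and the summed endothelial markers were at 3782 in naive replicate 2 (4256 to 4319.9).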

How the results depend on the processing

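With the total count as size factor, 5 members were called (Acp5, Ctsk, Ocstamp, Oscar and Nfatc1, all higher) in place of 1, and 6 pathway genes in place of 3, of which 5 were higher. Over all genes this scaling called 489 lower genes in place of 1052, and 80.6% of its calls were higher, compared with 56.7%. Without a fold threshold 2 members were called (Ocstamp and Nfatc1), 15 pathway genes (4 higher and 11 lower) and 4010 of all genes (1989 lower) in place of 2429. Across the 8 fits that left out a library, between 1 and 4 members were called, with 4 without naive replicate 4 and 3 without DMM replicate 2. Between 3 and 7 pathway genes were called in those fits (2 to 4 higher and 1 to 3 lower), with 5 without naive replicate 3, 7 without naive replicate 4 and 7 without DMM replicate 4, and between 1858 and 2842 of all genes. The log2 fold change of Calcr reversed without naive replicate 1 and ranged from -0.52 to 0.12. For none of these shifts was the cause tested. Ocstamp was called under every setting run. The adjusted p of Nfatc1 was 0.00548 in the edgeR quasi-likelihood test, compared with 6.62e-06 in DESeq2. The limits are the low counts of Calcr, Dcstamp, Oscar and Ocstamp and the number of mice.

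Both groups number their mice 1 to 4. Deviations from the group means of libraries with the same number had correlations across 18403 genes of 0.0498, 0.058, -0.119 and 0.117, so the numbers were not taken to pair the mice. With the replicate block 1 member (Ocstamp), 3 pathway genes and 2081 of all genes were called, and the members and pathway genes called were those called without the block. At any fold, 4 members passed the adjusted p under the block in place of 2, since Acp5 (0.0328) and Ctsk (0.0186) passed as well (DESeq2 adjusted p), and 8 pathway genes were lower in place of 11. With TMM factors 3 members passed at any fold.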
